A study of Homo sapiens with 15 samples.

Results

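The genes described here carry glucose from the cell surface into lactate, into the pentose phosphate pathway and into the hexosamine pathway. Members were taken by symbol from a fixed list of 34 genes, and all 34 were found among the 26485 gene symbols of the deposited tables. The rule uses no measured value. The steps are glucose transporters (SLC2A1, SLC2A3), hexokinases (HK1, HK2), upper glycolysis (GPI, PFKL, PFKM, PFKP, ALDOA, ALDOC, TPI1), the enzymes that make and remove fructose 2,6-bisphosphate (PFKFB2, PFKFB3, PFKFB4), lower glycolysis (GAPDH, PGK1, PGAM1, ENO1, ENO2, PKM), lactate (LDHA, LDHB, SLC16A1, SLC16A3), the pentose phosphate pathway (PGLS, PGD, TKT, TALDO1, RPIA, RPE) and the hexosamine pathway (GFPT1, GNPNAT1, PGM3, UAP1). In 33 of the 34 the counts were high enough for a test, and the exception was LDHB.

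Glycolysis splits glucose into pyruvate, and many tumour cells turn much of that pyruvate into lactate and export it. Branches leave the pathway near its start: glucose 6-phosphate feeds the pentose phosphate pathway, which makes NADPH and ribose, and fructose 6-phosphate feeds the hexosamine pathway, which makes UDP-N-acetylglucosamine for protein glycosylation. MondoA, the product of the gene MLXIP, is a transcription factor that pairs with MLX, is held active by glucose 6-phosphate and binds E-box letters (CACGTG) at genes such as TXNIP and ARRDC4, whose products restrain glucose uptake.

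RNA was sequenced from PSN-1, an established human cell line of pancreatic ductal adenocarcinoma (PDAC), in 15 libraries. In the first experiment cells were transfected for 72 hours with a control siRNA (siControl), an siRNA against MondoA (siMondoA) or one against its partner (siMLX). In the second, cells were exposed for 72 hours to the solvent DMSO or to SBI-477, a small molecule described in the labels as a MondoA inhibitor. Each of the 5 groups had 3 libraries. All cells were of this 1 line and grew in RPMI medium with 10% fetal bovine serum. The siRNA sequences and the dose of SBI-477 are not given in the sources used here. Whether replicates came from separate cultures is not stated, and p-values then measure only a spread between libraries that may be technical.

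Library totals ran from 11227343 to 14731691 counts in the siRNA experiment and from 23315440 to 30480362 in the drug experiment. Levels are given as CPM, each gene's count relative to its library's total after TMM scaling, separately in each experiment. MLXIP stood at 83.6, 65.8 and 88.7 CPM in the siControl libraries and at 22.6, 23.4 and 15.7 in the siMondoA libraries, and MLX at 53.4, 58.8 and 53 in siControl and 11.9, 7.15 and 7.7 in siMLX, so both targeted transcripts were lower in each library of their group. Keratins of epithelial cells were high (KRT8 from 532 to 1233 CPM over all 15 libraries), while the fibroblast genes LUM and COL3A1 were also present (COL3A1 from 26.2 to 661 CPM) and the leukocyte gene CD3E was at 0 in all libraries. Other genes of these lists went differently. The epithelial EPCAM and CDH1 ran from 17.2 to 42 and from 1.06 to 39.8 CPM. The fibroblast gene DCN ran from 0 to 14.2 CPM, and CD68 of the leukocyte list from 18.1 to 56.1 CPM. The authors' deposited fold changes for the drug were not reproduced from the counts as labelled (median absolute difference 0.196 on the log2 scale over 13086 genes) but were once replicate 2 of DMSO and replicate 2 of SBI-477 were exchanged (1.89e-07), while those for siMondoA were reproduced as labelled (2.27e-13). This check used DESeq2 with a replicate term for siMondoA and without one for the drug, while the main tests here have no replicate term. Libraries keep their labels here, and drug tests are given as labelled and with replicates 1 and 3 alone. A siMLX library also stood apart: in replicate 2 a list of 12 integrated stress response genes had a median log2 difference of 2.46 from siControl, against 0.25 and 0.34 in the others. Tests after siMLX are therefore given with and without it.

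Per kilobase of exon, the steps from aldolase to lactate dehydrogenase A held the highest levels. In siControl GAPDH was first at 1089.5 ± 125 CPM per kilobase, followed by ENO1 at 444 ± 18.1 and LDHA at 439 ± 28, which differed from each other by less than their spread. PKM, ALDOA, PGK1 and TPI1 came next, from 353 ± 10.5 for PKM to 237 ± 13.5 for TPI1. The regulatory and branch genes were far lower: GFPT1 stood at 10.4 ± 0.17, PFKFB3 at 5.91 ± 0.575, PGM3 at 3.59 ± 0.0439 and PFKFB2, the lowest tested, at 2.38 ± 0.1 CPM per kilobase. Within pairs of isozymes, PFKP was above PFKL and PFKM, ALDOA above ALDOC, ENO1 above ENO2 and SLC2A1 above SLC2A3 in the siControl means per kilobase.

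LDHB, the lactate dehydrogenase subunit that favours pyruvate formation, had 1 count in all 15 libraries together. A count of 0 allows a level of up to 0.204 to 0.267 CPM in the siRNA libraries and 0.0984 to 0.129 CPM in the drug libraries, for counting error only. Of the pair LDHA and LDHB, every count but that 1 was from LDHA. Of the distinct 25-base words of LDHB transcripts, 48.0% also occur in transcripts of other genes, and the part of this in its count was not tested.

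PGAM1, the phosphoglycerate mutase, set the experiments apart. It stood at 317, 330.5 and 338 CPM in the siControl libraries and at 47.9, 47.1 and 42.1 in the DMSO libraries. Per kilobase it ranked 8 among the members in siControl and 23 in DMSO. The tables were scaled separately and the control treatments differ, so this is not a test of any treatment. PGAM1 (chr10:97426160-97433441, plus strand) has 13 named pseudogenes, and 55.4% of its 25-base words also lie in transcripts of other genes.

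**Figure D1:**
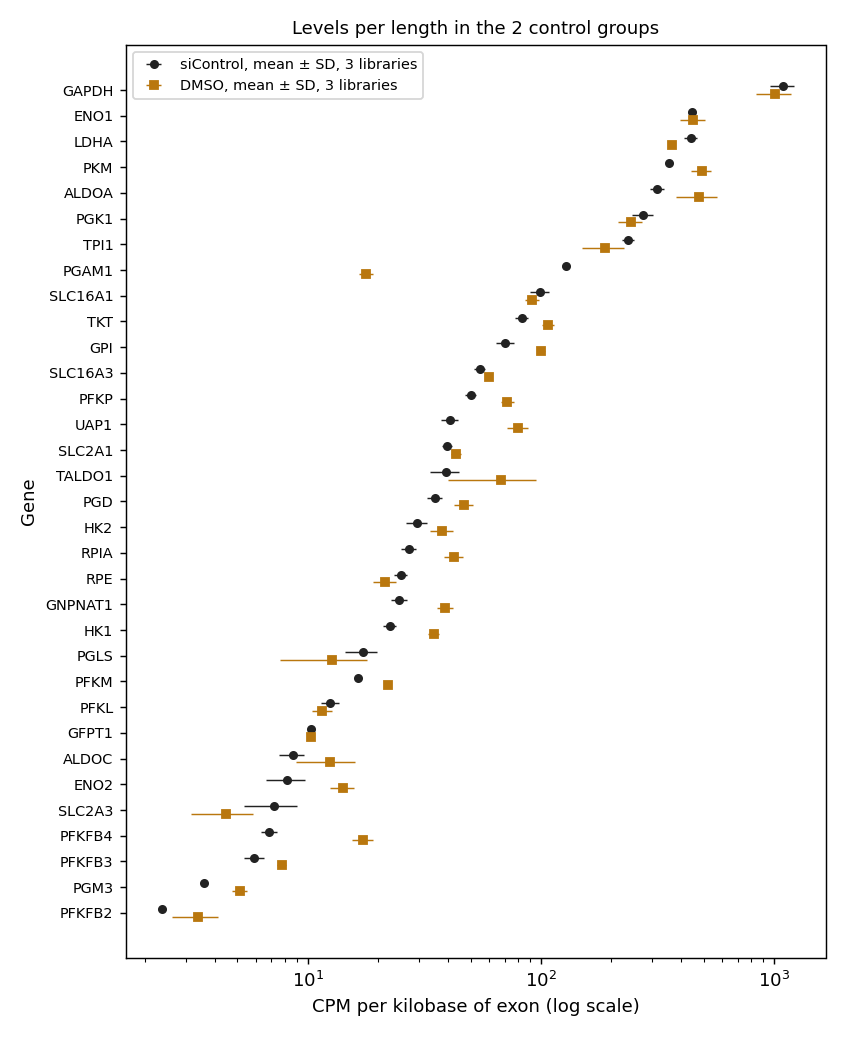
Levels per length of the 33 tested members in both control groups, cells given a control siRNA or DMSO. The x axis is CPM per kilobase of exon on a log scale, the y axis lists genes in the order of their siControl mean, and points and bars are the mean and SD of 3 siControl (circles) and 3 DMSO libraries (squares). GAPDH is highest in both groups, and PGAM1 stands at 128 ± 4.15 in siControl and 17.8 ± 1.23 in DMSO.

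After siMondoA, 6 of the 33 tested members rose and 3 fell, while 24 did not pass the threshold (edgeR's quasi-likelihood test, Benjamini-Hochberg adjusted p under 0.05 over all genes). That is 27.3% of the members, beside 27.2% of all 13001 genes tested, so the share of changed genes was that of the whole transcriptome. The 6 that rose are all 4 hexosamine genes, the hexokinase HK2 and the lactate exporter SLC16A3, and the 3 that fell are LDHA, PFKFB3 and PGD. Over all genes 14.2% rose and 12.9% fell. The members' median log2 fold change was -0.10, beside 0.00 for all genes, with 13 members above 0 and 20 below. In 8 members every siMondoA library was above every siControl library, and in 6 every one was below, where all genes gave 24.4% and 22.8%. These are bulk libraries, in which fewer cells of a type and less RNA per cell cannot be told apart.

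**Figure D2:**
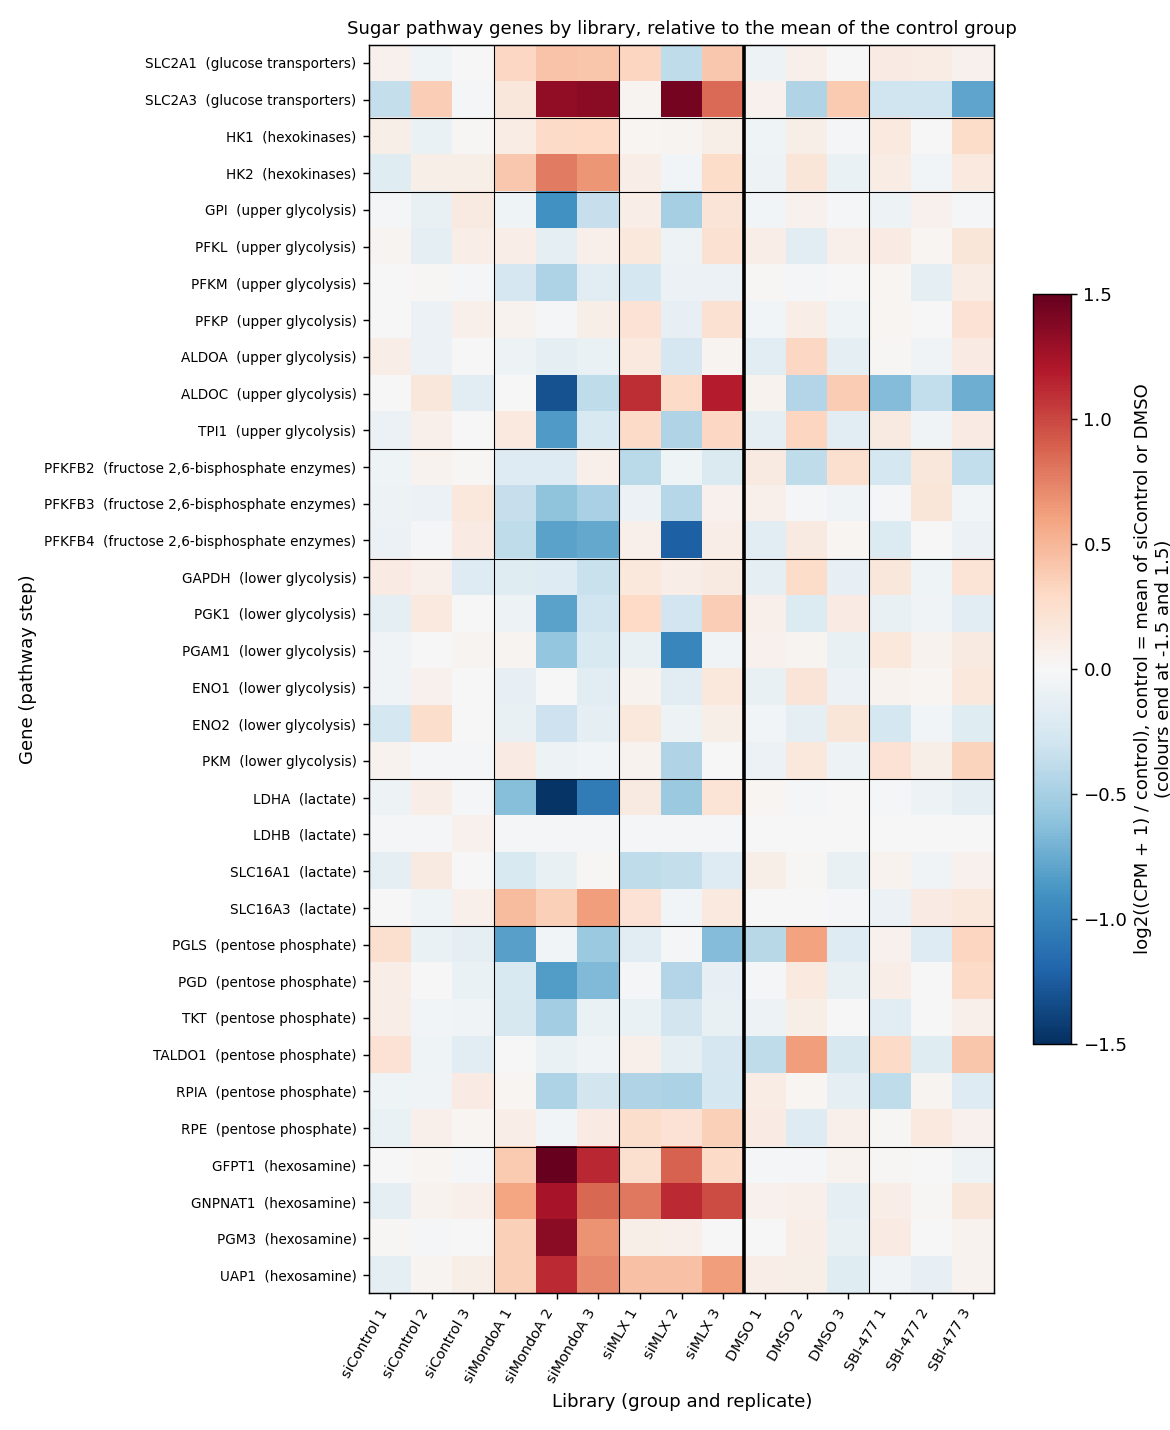
Level of each member in each library relative to its control group. Columns are libraries, rows are genes in pathway order, and the colour is log2 of (CPM + 1) over the mean of siControl (left of the thick line) or DMSO (right of it), with colours ending at -1.5 and 1.5. The 4 hexosamine genes in the bottom rows are above siControl in all 3 siMondoA libraries, and LDHA is below it in all 3.

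The hexosamine pathway was the only step of which every listed member rose after siMondoA. GFPT1 (ENSG00000198380, chr2:69319769-69387254, minus strand), the rate-limiting enzyme that joins fructose 6-phosphate with glutamine, stood at 91.9, 93.8 and 90.8 CPM in siControl and 121, 420.2 and 203 in siMondoA. Every siMondoA library was above every siControl library, and replicate 2 was far above the others. The log2 fold change was 1.43 ± 0.36 (SE; edgeR adjusted p = 0.0174). Without siMondoA replicate 2 it was 0.81 (edgeR adjusted p = 0.0406), and without siControl replicate 1, 2 or 3 the call was lost (edgeR adjusted p = 0.0593, 0.062 and 0.0562).

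GNPNAT1 (ENSG00000100522, chr14:52775194-52791668, minus strand), which acetylates glucosamine 6-phosphate, measured 90.3, 103 and 104 CPM in siControl and 150.1, 234 and 181 in siMondoA. The groups did not overlap (0.92 ± 0.16, edgeR adjusted p = 0.00355), and the call held without each of the 6 compared libraries in turn. PGM3 (ENSG00000013375, chr6:83161150-83193936, minus strand), the mutase that moves the phosphate of N-acetylglucosamine, went from 26.6, 26 and 26.5 CPM in siControl to 33.9, 69 and 42.8 in siMondoA. Its siControl libraries were nearly equal and siMondoA replicate 1 was the nearest to them. The log2 fold change was 0.88 ± 0.22 (edgeR adjusted p = 0.015), 0.54 without siMondoA replicate 2 (edgeR adjusted p = 0.0236), and the call was lost without siControl replicate 1 or 2 (edgeR adjusted p = 0.0503 and 0.0569).

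UAP1 (ENSG00000117143, chr1:162561506-162599842, plus strand), which makes UDP-N-acetylglucosamine, had 127, 144 and 148 CPM in siControl and 179, 304 and 230.1 in siMondoA. Again the groups did not overlap (0.77 ± 0.17, edgeR adjusted p = 0.0106), and the call held without each compared library in turn. In all 4 genes replicate 2 was the highest siMondoA library and replicate 1 the lowest. By library their median log2 difference from siControl was 0.38 in siMondoA replicate 1, 1.31 in replicate 2 and 0.80 in replicate 3.

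The integrated stress response list followed the same order of libraries: its median difference from siControl was 1.80 in siMondoA replicate 1, 3.29 in replicate 2 and 2.81 in replicate 3. All 12 of its 12 genes, among them ATF4, ASNS and TRIB3, rose after siMondoA. In siMLX, where replicate 2 had the stress genes high, that library had the highest GFPT1 and GNPNAT1 of its group, while UAP1 was highest in replicate 3 and PGM3 in replicate 1. The part of the stress response in the hexosamine result was not tested.

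The start regions of these genes are shown because the 4 moved together and because MondoA and MLX bind E-box letters. Each line is the first promoter window listed for the gene in RefSeq on GRCh38.p14, from 250 bases before to 50 after the transcript start, in lower case. Capitals mark the letters ACGTG in either orientation (CACGT on the other strand), a core shared by hypoxia sites and the E-box CACGTG, and in UAP1 the longer run TGACGTG around it. LDHA, the member that fell most, follows for comparison, with its E-boxes also in capitals. The windows lie at chr2:69387178-69387477, minus strand (GFPT1), chr14:52791558-52791857, minus strand (GNPNAT1), chr6:83193216-83193515, minus strand (PGM3), chr1:162561281-162561580, plus strand (UAP1) and chr11:18394313-18394612, plus strand (LDHA).
GFPT1: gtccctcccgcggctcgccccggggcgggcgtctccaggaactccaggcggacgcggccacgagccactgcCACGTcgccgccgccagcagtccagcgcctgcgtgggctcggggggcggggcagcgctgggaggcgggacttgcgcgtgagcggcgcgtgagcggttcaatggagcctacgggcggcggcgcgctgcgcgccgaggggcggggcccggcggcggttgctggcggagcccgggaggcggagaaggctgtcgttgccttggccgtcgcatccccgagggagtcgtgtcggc
GNPNAT1: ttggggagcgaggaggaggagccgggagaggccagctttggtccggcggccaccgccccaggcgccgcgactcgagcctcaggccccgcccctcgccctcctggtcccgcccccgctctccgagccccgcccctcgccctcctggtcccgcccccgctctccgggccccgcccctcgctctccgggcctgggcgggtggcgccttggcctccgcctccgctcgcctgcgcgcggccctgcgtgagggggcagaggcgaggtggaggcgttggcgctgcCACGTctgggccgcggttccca
PGM3: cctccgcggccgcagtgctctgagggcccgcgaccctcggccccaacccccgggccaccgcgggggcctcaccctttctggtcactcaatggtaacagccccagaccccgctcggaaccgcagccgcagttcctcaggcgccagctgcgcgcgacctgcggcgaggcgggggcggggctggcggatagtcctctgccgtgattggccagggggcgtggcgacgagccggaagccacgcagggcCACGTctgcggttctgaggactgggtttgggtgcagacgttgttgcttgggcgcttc
UAP1: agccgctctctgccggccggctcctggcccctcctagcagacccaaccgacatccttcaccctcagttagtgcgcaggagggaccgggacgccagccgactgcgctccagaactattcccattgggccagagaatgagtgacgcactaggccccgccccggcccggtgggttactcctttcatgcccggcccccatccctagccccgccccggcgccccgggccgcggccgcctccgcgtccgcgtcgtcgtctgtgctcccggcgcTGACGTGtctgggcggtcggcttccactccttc
LDHA: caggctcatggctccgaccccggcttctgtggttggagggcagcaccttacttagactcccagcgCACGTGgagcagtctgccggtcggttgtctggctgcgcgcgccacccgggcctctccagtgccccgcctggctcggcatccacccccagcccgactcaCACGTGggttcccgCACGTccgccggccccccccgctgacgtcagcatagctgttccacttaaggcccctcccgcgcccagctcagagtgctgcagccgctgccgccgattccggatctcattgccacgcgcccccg

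None of the 4 hexosamine windows shown holds CACGTG, and LDHA holds it at bases -185 and -87 from the start site. Over all members, 31 of the 34 genes matched the RefSeq table, with 59 windows. CACGTG lay in 6 of these windows (10.2%, in ALDOA, ALDOC, GAPDH, HK2, LDHA and PFKFB3), beside 7.26% of all 35116 windows. Of these genes HK2 rose after siMondoA, LDHA and PFKFB3 fell, and ALDOA, ALDOC and GAPDH did not pass. The other LDHA window held no CACGTG, nor did any window of SLC16A3, which rose, or PGD, which fell. ACGTG, searched on both strands and contained in CACGTG and TGACGTG, lay in 24 of the 59 (40.7%) beside 21.4% of all windows, among them 6 of the 7 hexosamine windows. TGATGNAA, letters of ATF4 sites, lay in 2 windows (3.39%), both of HK1, beside 3.62% of all. TGACGTG, added after the values were seen, lay in 5 windows (8.47%) beside 1.97%. Windows of 1 gene overlap, and a match is a description of letters, not of binding.

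**Figure D3:**
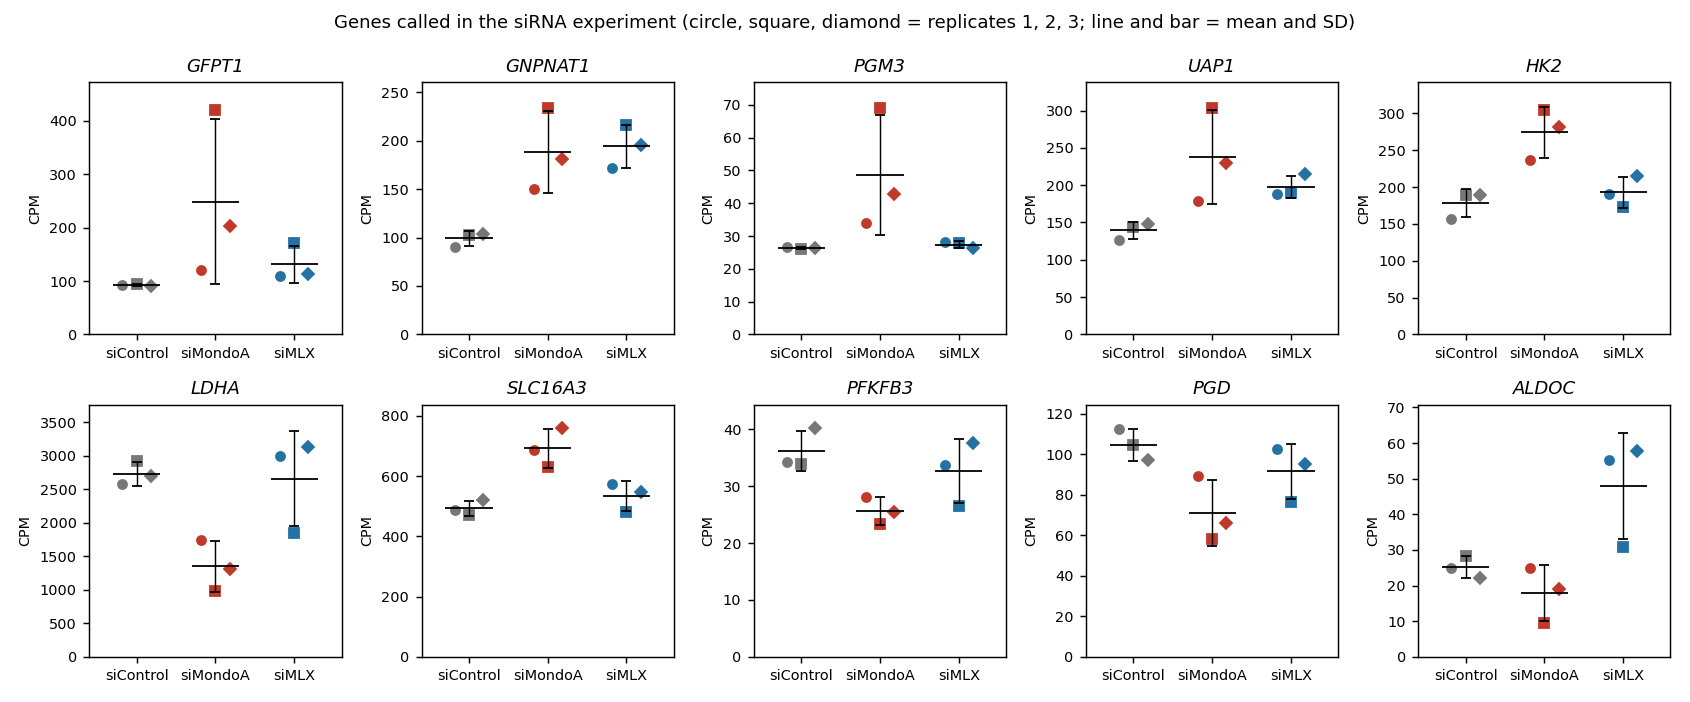
Genes with an adjusted p under 0.05 in any of the 3 siRNA comparisons. Each panel is 1 gene, the y axis is CPM starting at 0, symbols are replicates 1 (circle), 2 (square) and 3 (diamond), and lines and bars are the mean and SD of 3 libraries. GFPT1 reaches 420.2 CPM in siMondoA replicate 2, while LDHA is lowest in that library.

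Both glucose transporters had positive fold changes after siMondoA, and neither passed the threshold. SLC2A1 (GLUT1) stood at 196, 178 and 186 CPM in siControl and 232, 251 and 249.9 in siMondoA. These groups did not overlap (0.39 ± 0.17, edgeR adjusted p = 0.119). SLC2A3 (GLUT3) stood at 33.7, 56.4 and 42.8 CPM in siControl, at 48.8, 110.2 and 112 after siMondoA and at 44.7, 119 and 78.6 after siMLX. Replicate 1 was the lowest library in each of these 3 groups, and siControl overlapped with both knockdown groups. The log2 fold changes were 1.03 ± 0.38 for siMondoA (edgeR adjusted p = 0.0644) and 0.87 ± 0.38 for siMLX (edgeR adjusted p = 0.175). With the replicate number as a block SLC2A3 passed in both (0.97 and 0.79, edgeR adjusted p = 0.00255 and 0.015), as it did in the authors' deposited table (0.97, adjusted p = 1.28e-05, and 0.79, adjusted p = 0.000164). The deposited siRNA fold changes come from the same libraries and were also reproduced with a replicate term. Of the 25-base words of SLC2A3 transcripts, 49.9% also lie in other genes' transcripts.

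HK2 (ENSG00000159399, chr2:74833981-74893359, plus strand), the inducible hexokinase of tumour cells, rose after siMondoA. Its libraries were at 157, 189.6 and 189 CPM in siControl, at 237, 305 and 281 after siMondoA and at 190.4, 173 and 215 after siMLX. Every siMondoA library was above every library of the other 2 siRNA groups. The change from siControl was 0.62 ± 0.13 (edgeR adjusted p = 0.00945) and held without each compared library in turn. HK1, the housekeeping hexokinase, stood at 151, 132 and 143 CPM in siControl and 153, 172 and 174 in siMondoA (0.23 ± 0.10, edgeR adjusted p = 0.104). The log2 ratio of HK2 to HK1 within a library was 0.39 higher in siMondoA than in siControl (exact two-sided permutation test, p = 0.1, the smallest that 3 against 3 libraries allow; adjusted over the 28 ratio tests, 0.35).

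No gene of upper glycolysis passed the threshold after siMondoA or siMLX. Between siMondoA and siControl the 7 genes ran from -0.50 ± 0.32 for the aldolase ALDOC to 0.03 ± 0.12 for the phosphofructokinase PFKP. PFKM, the muscle type phosphofructokinase, stood at 120.1, 122 and 118 CPM in siControl and 101, 86.7 and 107 in siMondoA (-0.29 ± 0.11, edgeR adjusted p = 0.0624). Its groups did not overlap, in contrast to those of the other 6. The isomerases GPI and TPI1 were lowest in siMondoA replicate 2, at 399 and 356 CPM, against siControl values of 736, 692 and 823 for GPI and 604, 677 and 640.5 for TPI1. With the replicate block GPI joined the genes that fell after siMondoA.

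ALDOC (ENSG00000109107, chr17:28573115-28577264, minus strand) moved apart between the knockdowns. It stood at 25.1, 28.5 and 22.2 CPM in siControl, at 25.1, 9.54 and 19.1 after siMondoA and at 55.2, 30.9 and 57.9 after siMLX. Every siMLX library was above every library of the other 2 groups, with replicate 2 the lowest of the 3. The difference between siMondoA and siMLX passed (-1.42 ± 0.32, edgeR adjusted p = 0.0183), while that between siMLX and siControl did not (0.93 ± 0.32, edgeR adjusted p = 0.0956). Without siMLX replicate 2 the latter was 1.16 and passed (edgeR adjusted p = 0.0369). Its paralog ALDOA stood at 1319, 1159 and 1232 CPM in siControl and 1366, 1034 and 1271 in siMLX, and the log2 ratio of ALDOC to ALDOA was 0.90 higher in siMLX than in siControl, and 1.07 higher without siMLX replicate 2 (for all libraries, exact two-sided permutation test, p = 0.1, the smallest possible; adjusted 0.35). Of the 25-base words of ALDOA, 77.3% are shared with transcripts of other genes.

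Of the enzymes that set fructose 2,6-bisphosphate, the activator of phosphofructokinase, PFKFB3 fell after siMondoA. PFKFB3 (ENSG00000170525, chr10:6144934-6254644, plus strand), whose kinase activity far exceeds its phosphatase activity, stood at 34.2, 34 and 40.2 CPM in siControl and 28.1, 23.3 and 25.5 in siMondoA. The groups did not overlap (-0.50 ± 0.15, edgeR adjusted p = 0.0351). Of the 6 compared libraries left out in turn, each but siMondoA replicate 1 ended the call, with edgeR adjusted p = 0.0684, 0.0706 and 0.12 for siControl replicates 1, 2 and 3, 0.103 for siMondoA replicate 2 and 0.0964 for replicate 3. PFKFB4 stood at 39.2, 40.9 and 45.6 CPM in siControl, at 31.8, 23.5 and 24.3 after siMondoA and at 44.3, 17.3 and 45 after siMLX. Its siMondoA libraries were all below siControl (-0.66 ± 0.29, edgeR adjusted p = 0.117), and in siMLX replicate 2 alone was low. PFKFB2 had the smallest difference of the 3 (-0.10 ± 0.14, edgeR adjusted p = 0.603).

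None of the 6 genes of lower glycolysis passed after siMondoA or siMLX, and in each of them siMondoA and siControl overlapped. Their log2 fold changes after siMondoA ran from -0.37 ± 0.21 for PGK1, the first ATP-making kinase of the pathway, to 0.00 ± 0.14 for PKM, the pyruvate kinase. GAPDH, often used as a reference gene, stood at 3522, 3399.6 and 2823 CPM in siControl, at 2847, 2832 and 2562 after siMondoA and at 3613, 3463 and 3545 after siMLX. The siMondoA libraries were all below the siMLX libraries, at the edge of the threshold (-0.37 ± 0.11, edgeR adjusted p = 0.0502). GAPDH has 62 named pseudogenes, and 46.0% of its 25-base words occur in other genes' transcripts. ENO1 changed by -0.10 ± 0.11, ENO2 by -0.21 ± 0.15 and PGAM1 by -0.24 ± 0.23 (edgeR adjusted p = 0.518, 0.313 and 0.462).

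LDHA (ENSG00000134333, chr11:18394388-18408425, plus strand), which turns pyruvate into lactate, fell most among the members after siMondoA. Its libraries stood at 2573, 2916 and 2689.8 CPM in siControl, at 1746, 985 and 1311 after siMondoA and at 2988, 1849.8 and 3133 after siMLX. All siMondoA libraries were below all siControl libraries, and in siMLX replicate 2 was low while replicates 1 and 3 were above siControl. The log2 fold change was -1.02 ± 0.23 after siMondoA (edgeR adjusted p = 0.0105), a call that held without each compared library in turn, and -0.04 ± 0.22 after siMLX (edgeR adjusted p = 0.937). Per kilobase LDHA ranked 3 among the members in siControl and 5 in siMondoA. Of its 25-base words, 17.0% are shared with transcripts of other genes, and LDHA has 6 named pseudogenes.

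SLC16A3 (MCT4; ENSG00000141526, chr17:82228397-82261129, plus strand), the low-affinity monocarboxylate carrier that exports lactate, rose as LDHA fell. It measured 489, 469.6 and 520.2 CPM in siControl and 685, 629.6 and 760.1 in siMondoA. The groups did not overlap (0.49 ± 0.11, edgeR adjusted p = 0.0121), and the call was lost without siControl replicate 2 (edgeR adjusted p = 0.054) or siMondoA replicate 3 (0.052). SLC16A1 (MCT1), the high-affinity carrier, stood at 480.3, 579 and 526 CPM in siControl, at 449, 488 and 534 after siMondoA and at 403, 411 and 459 after siMLX. The siMLX libraries were all below siControl (-0.32 ± 0.11, edgeR adjusted p = 0.112). The log2 ratio of SLC16A3 to SLC16A1 was 0.59 higher in siMondoA and 0.42 higher in siMLX (0.48 without siMLX replicate 2) than in siControl, with all libraries each with p = 0.1 in an exact two-sided permutation test and 0.35 adjusted over the ratio tests.

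In the pentose phosphate pathway PGD fell after siMondoA and the other 5 genes did not pass. PGD (ENSG00000142657, chr1:10398592-10420144, plus strand), the dehydrogenase that yields NADPH and ribulose 5-phosphate, measured 112, 104 and 97 CPM in siControl and 89.1, 58 and 65.8 in siMondoA. Every siMondoA library was below every siControl library (-0.56 ± 0.17, edgeR adjusted p = 0.0313). Among the 6 compared libraries, leaving out any but siMondoA replicate 1 ended the call, with edgeR adjusted p = 0.101, 0.0844 and 0.0549 for siControl replicates 1, 2 and 3 left out in turn, 0.0975 for siMondoA replicate 2 and 0.102 for replicate 3. The transketolase TKT also had all siMondoA libraries below siControl (-0.28 ± 0.12, edgeR adjusted p = 0.113). PGLS, the lactonase before PGD, had 57.8, 45.3 and 44 CPM in siControl and 27.3, 47.1 and 32.8 in siMondoA (-0.45 ± 0.22, edgeR adjusted p = 0.147), with replicate 2 inside the siControl range. The transaldolase TALDO1 had -0.06 ± 0.13 (edgeR adjusted p = 0.754). For the isomerase RPIA and the epimerase RPE the values after siMLX were -0.40 ± 0.14 and 0.28 ± 0.10 (edgeR adjusted p = 0.104 and 0.103), and neither overlapped with siControl.

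**Figure D4:**
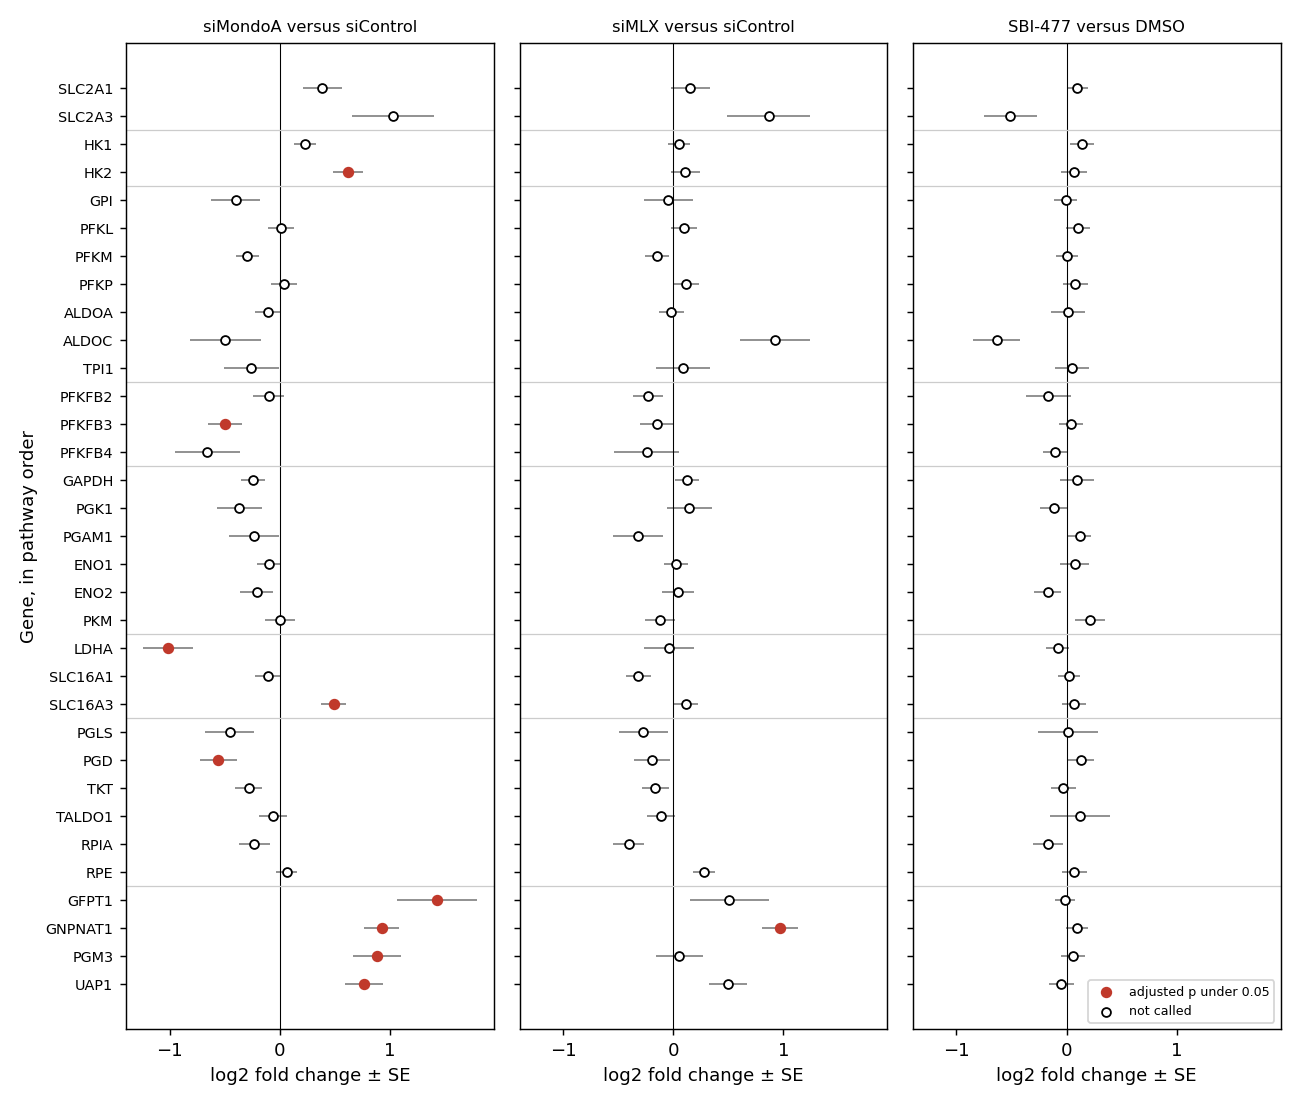
Log2 fold changes of the 33 tested members in 3 comparisons. The x axis is the log2 fold change with its standard error, the y axis lists genes in pathway order with lines between steps, and filled points passed an adjusted p of 0.05. There are 9 filled points for siMondoA, 1 for siMLX and none for SBI-477, with all libraries as labelled. With replicates 1 and 3 only, which is not drawn, 5 members rose and 3 fell after SBI-477 (24.2% beside 18.1% of all genes).

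After siMLX, 1 of the 33 members rose and none fell by edgeR, 3.03% of the members beside 8.41% of all genes. Over all genes 3.72% rose and 4.69% fell. In the edgeR test 7 of the 33 members had an unadjusted p under 0.05, beside 3374 of all 13001 genes. DESeq2 called 2 members, beside 13% of all genes. The member that rose by edgeR was GNPNAT1, at 171, 216 and 195 CPM in siMLX. All 3 libraries were above siControl, the log2 fold change of 0.97 ± 0.16 (edgeR adjusted p = 0.0072) lay beside 0.92 ± 0.16 after siMondoA, and the call held without each compared library in turn. These comparisons share the siControl libraries. GFPT1 and UAP1 also had all siMLX libraries above siControl, at 109, 171 and 113 and 189, 189 and 215 CPM, without passing (0.51 ± 0.36 and 0.50 ± 0.17, edgeR adjusted p = 0.406 and 0.0961). In 5 members all siMLX libraries were above siControl and in 5 all were below, where all genes gave 16.5% and 16.9%. PGM3 stood at 28.1, 27.8 and 26.3 CPM (0.06 ± 0.22, edgeR adjusted p = 0.899). Same-numbered siControl and siMLX libraries deviated together, and with the replicate number as a block 3 members rose after siMLX, GNPNAT1, SLC2A3 and UAP1 (0.96, 0.79 and 0.51; edgeR adjusted p = 0.00114, 0.015 and 0.0427), 9.09% of the members beside 14% of all genes.

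Without siMLX replicate 2, GNPNAT1 (0.89 ± 0.17, edgeR adjusted p = 0.0149) and ALDOC rose after siMLX, 6.06% of the members beside 6.27% of all genes. The other hexosamine genes were then at 0.27 ± 0.37 for GFPT1, 0.05 ± 0.24 for PGM3 and 0.53 ± 0.19 for UAP1 on the log2 scale (edgeR adjusted p = 0.709, 0.936 and 0.117). LDHA was at 0.17 ± 0.20, PFKFB4 at 0.09 ± 0.15, SLC2A3 at 0.48 ± 0.35 and SLC16A1 at -0.29 ± 0.13 (edgeR adjusted p = 0.657, 0.768, 0.447 and 0.2). For RPIA and RPE the values were -0.37 ± 0.16 and 0.31 ± 0.11 (edgeR adjusted p = 0.192 and 0.113). The values of LDHA and PFKFB4 were above 0 without that library and below 0 with it (-0.04 ± 0.22 and -0.24 ± 0.29), and passed in neither fit.

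Replicate 2 was the lowest siMLX library in 22 of the 33 members and the highest in 5, and the lowest siMondoA library in 20. The same was not counted over all genes, so it is not shown to be particular to the members. The members' share of all counts was 2.14%, 1.66% and 2.15% in siMLX replicates 1, 2 and 3, 1.89%, 1.55% and 1.69% in siMondoA, and 1.96% to 2.00% in siControl. These libraries are also those with the highest stress gene medians of their groups. The part of the stress response in these lower levels was not tested. The 12 hypoxia targets outside the members had medians between -0.34 and 0.27 in the 9 siRNA libraries, with siMLX replicate 2 the lowest.

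Directly compared, siMondoA and siMLX differed in 4 members, 12.1% beside 12.9% of all genes, 6.66% higher and 6.21% lower in siMondoA (edgeR). HK2 (0.51 ± 0.13, edgeR adjusted p = 0.0327) and PGM3 (0.83 ± 0.22, edgeR adjusted p = 0.0315) were higher in siMondoA, and LDHA (-0.98 ± 0.23, edgeR adjusted p = 0.0198) and ALDOC were lower. GFPT1 (0.92 ± 0.36, edgeR adjusted p = 0.114) did not pass, nor did GNPNAT1 (-0.05 ± 0.16, edgeR adjusted p = 0.871). In a fit of these 6 libraries alone no member passed, beside 5.55% of all genes, with edgeR adjusted p = 0.0744 for HK2, 0.0913 for PGM3, 0.0663 for LDHA and 0.0631 for ALDOC. Leaving out 1 library ended the calls of HK2, PGM3 and LDHA for siMondoA replicate 2 or 3 and siMLX replicate 1 or 3, and that of ALDOC for siMondoA replicate 3 and siMLX replicate 1 or 3, with edgeR adjusted p from 0.0509 to 0.104. Without siMLX replicate 2, 2 members were higher and 5 lower in siMondoA, 21.2% beside 22.5% of all genes. HK2 (0.44 ± 0.14) and PGM3 (0.84 ± 0.25) were higher there. LDHA (-1.18 ± 0.19), ALDOC (-1.66 ± 0.29), PFKFB3 (-0.48 ± 0.14), PFKFB4 (-0.75 ± 0.15) and PGK1 (-0.69 ± 0.18) were lower, and edgeR adjusted p over the 7 ran from 0.00265 for LDHA to 0.0484 for HK2. Without replicate 2 of both groups, a setting added after the values were seen, LDHA (-1.01, edgeR adjusted p = 0.00115), ALDOC (-1.36, edgeR adjusted p = 0.00046) and PGM3 (0.49, edgeR adjusted p = 0.0345) still passed, and HK2 did not (0.35, edgeR adjusted p = 0.1).

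In these cultures of the 1 line PSN-1, genes listed as markers of cell types also differed between the siRNA groups. The 4 leukocyte genes summed to 31.4 to 43.2 CPM in siControl, 56.1 to 73.1 in siMondoA and 44.0 to 72.3 in siMLX, nearly all from CD68 and LYZ, while PTPRC was at or below 0.152 CPM in every library and CD3E was at 0. The 4 endothelial genes summed to 21.1 to 25.0 CPM in siControl, 27.4 to 38.0 in siMondoA and 26.9 to 37.6 in siMLX, with CDH5 and VWF at or below 0.444 CPM in every library. The epithelial sums (1875 to 2797 CPM in siControl, 1658 to 1993 in siMondoA) and fibroblast sums (514 to 665 and 539 to 824) overlapped, while single genes within them did not. The epithelial cadherin CDH1 rose after siMondoA (2.38 ± 0.37, edgeR adjusted p = 0.00215). So did the fibroblast collagen COL3A1 (0.54 ± 0.15, edgeR adjusted p = 0.0263), the endothelial KDR (0.94 ± 0.22, 0.0124) and CD68 (1.06 ± 0.16, 0.00178), and the fibroblast receptor PDGFRB fell (-1.93 ± 0.24, 0.000782). The other epithelial genes did not pass after siMondoA. KRT8, KRT18, KRT19 and EPCAM had log2 fold changes of -0.44, -0.40, -0.78 and -0.32, and KRT7 had 0.31. Their edgeR adjusted p ran from 0.0723 for KRT19 to 0.431 for EPCAM. For KRT18 and KRT19 every siMondoA library was below every siControl library. After siMLX, DCN (2.80 ± 0.37, edgeR adjusted p = 0.0027) and KDR (1.40 ± 0.22, 0.00551) rose and PDGFRB fell (-1.20 ± 0.23, 0.0133). CDH1 missed the threshold after siMLX (-1.20 ± 0.41, edgeR adjusted p = 0.096), with all siMLX libraries below siControl. The part of these markers in the members' results was not tested.

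As the libraries are labelled, no member passed after SBI-477: 0 of 33, beside 0% of 14023 genes (edgeR), and DESeq2 called 0. In the edgeR test 1 of the 33 members had an unadjusted p under 0.05, beside 409 of the 14023 genes. In none of the members were the groups apart, where 4.76% of all genes had every SBI-477 library above every DMSO library and 4.5% below. ALDOC had that unadjusted p, with 36.9, 25.9 and 46.4 CPM in DMSO and 22.2, 27.1 and 21 in SBI-477 (-0.64 ± 0.21, edgeR adjusted p = 1). Of the hexosamine genes, GFPT1 stood at 90.1, 89.4 and 95 CPM in DMSO and 92.8, 91.7 and 86.9 in SBI-477 (-0.02 ± 0.09), and the other 3 ran from -0.05 ± 0.11 for UAP1 to 0.10 ± 0.10 for GNPNAT1. LDHA was at 2327, 2233 and 2259 and 2235, 2161 and 2049 CPM (-0.08 ± 0.11). TXNIP, a known MondoA target, was at 145, 39.2 and 204 CPM in DMSO and 74.6, 121 and 41.5 in SBI-477, so that replicate 2 was the lowest DMSO and the highest SBI-477 library.

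The same reversal of replicate 2 was present in members. TALDO1 stood at 147, 298 and 163 CPM in DMSO and 235, 170.1 and 257 in SBI-477, so DMSO replicate 2 was above all other drug libraries and SBI-477 replicate 2 was near DMSO replicates 1 and 3. PFKFB2 showed the opposite, with 37.3, 25.8 and 40.2 CPM in DMSO and 27.9, 38.2 and 26 in SBI-477. DMSO replicate 2 was the highest of its group in 18 of the 33 members and SBI-477 replicate 2 the lowest of its group in 18. Neither was counted over all genes, so this is not shown to be particular to the members.

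With replicates 1 and 3 only, 2 libraries a group, 5 members rose and 3 fell after SBI-477, 24.2% of the 33 beside 18.1% of all genes (9.07% up and 9.02% down). This choice leaves out the libraries that go against their labels and so depends on the values. The rises were TALDO1 (0.67 ± 0.09, edgeR adjusted p = 0.00245), the lactonase PGLS (0.51 ± 0.12, 0.0195), PKM (0.36 ± 0.10, 0.0376), GAPDH (0.33 ± 0.09, 0.039) and TPI1 (0.29 ± 0.08, 0.038). The falls were ALDOC (-0.94 ± 0.12, edgeR adjusted p = 0.00201), SLC2A3 (-0.79 ± 0.17, 0.015) and PFKFB2 (-0.52 ± 0.10, 0.00793). None of the hexosamine genes passed there (GFPT1 -0.04 ± 0.09, GNPNAT1 0.17 ± 0.09, PGM3 0.14 ± 0.09, UAP1 0.04 ± 0.10), nor did LDHA (-0.10 ± 0.10, edgeR adjusted p = 0.505). In the authors' deposited table the same 8 members had an adjusted p under 0.05, from TALDO1 at 0.73 (adjusted p = 5.03e-08) to PKM at 0.27 (0.0347), together with ALDOA at 0.29 (0.0396). Those values match the counts only with the replicate 2 libraries exchanged. They include the same replicates 1 and 3, so they are not independent of this fit. The share of all genes called in the authors' test is not given here.

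**Figure D5:**
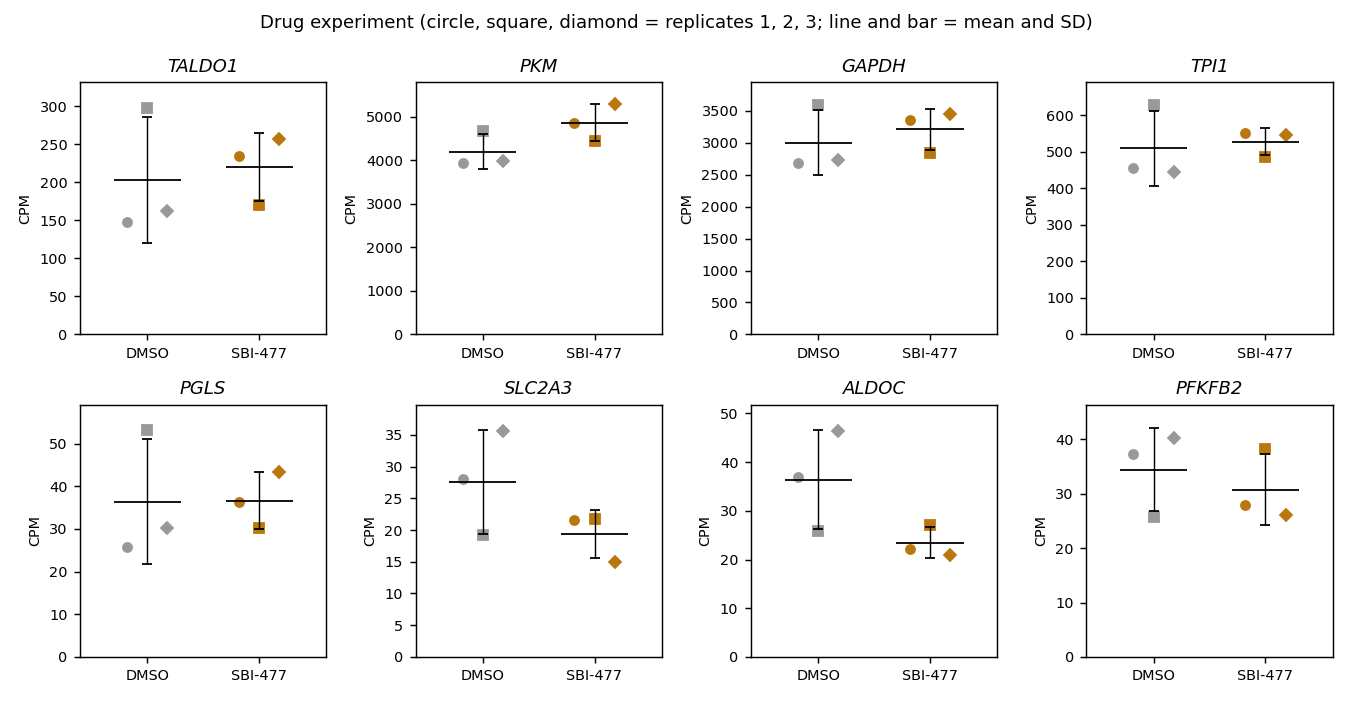
The 8 members called between SBI-477 and DMSO with replicates 1 and 3 only. The y axis is CPM starting at 0, symbols are replicates 1 (circle), 2 (square) and 3 (diamond), and lines and bars are the mean and SD of all 3 libraries. In TALDO1 the DMSO square is at 298 CPM, above all SBI-477 libraries, and in ALDOC it is the lowest DMSO library.

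Whether SBI-477 and siMondoA acted differently on a member was tested as an interaction in 1 fit of all 15 libraries. It passed for 3 of 33 members, 9.09% beside 7.67% of all genes, 3.84% above 0 and 3.83% below (edgeR). For LDHA the SBI-477 effect was 0.95 ± 0.28 above that of siMondoA on the log2 scale (edgeR adjusted p = 0.048), for GNPNAT1 -0.81 ± 0.20 (0.0278) and for UAP1 -0.80 ± 0.22 (0.0427). GFPT1 (-1.43 ± 0.43, 0.0529), PGM3 (-0.81 ± 0.26, 0.0694) and PGD (0.71 ± 0.22, 0.0588) did not pass. With replicates 1 and 3 only in the drug experiment the values for LDHA, GNPNAT1 and UAP1 were 0.94, -0.73 and -0.71, and none of these passed (edgeR adjusted p = 0.0739, 0.0565 and 0.0842). GAPDH (0.59 ± 0.15), PGD (0.85 ± 0.24) and TALDO1 (0.75 ± 0.18) passed there (edgeR adjusted p = 0.0313, 0.039 and 0.0265), 9.09% of the members beside 11.5% of all genes. With DESeq2 size factors the LDHA value was 0.94 and missed the threshold (edgeR adjusted p = 0.0501), and with the replicate block UAP1 was -0.77 (0.0528). With all of the drug libraries, the 12 libraries of the siControl, siMondoA, DMSO and SBI-477 groups were left out in turn. Each but siMondoA replicate 1 ended the LDHA call, GNPNAT1 held without siMondoA replicate 1 or DMSO replicate 2 or 3, and UAP1 held without siMondoA replicate 1 or DMSO replicate 3, with edgeR adjusted p up to 0.106 otherwise. The experiments also differ in transfection, in the control treatment and in depth, which cannot be told apart from the agent.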

How the data were processed

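Per the file headers, the authors deposited raw counts in 1 table per experiment, for 26485 gene symbols. The same deposited tables hold the authors' log2 fold change, p-value and adjusted p-value for each comparison, which are named as theirs where printed. The submitters' processing notes list HTSeq 0.6.1, TopHat2 2.1.0, bcl2fastq 1.8.4 and edgeR, and both hg38 and mm10. Per the labels' protocols, 500 ng of RNA gave paired reads of 25 bases. Strand marking is not stated in those protocols.

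Counts were tested with edgeR 4.0.16 in R 4.3.3 (filterByExpr, TMM, quasi-likelihood test, no replicate term). The siRNA comparisons came from a fit of 9 libraries, the drug comparison from a fit of 6 and the interaction from a fit of all 15. P-values were adjusted over all genes by Benjamini-Hochberg with a threshold of 0.05, and log2 CPM used a prior count of 2. Floors are 3 counts over the library total and cover counting error only. Groups came from sample titles. Alternatives were DESeq2 1.42.0 and its size factors, no filter, a replicate block, the 6 libraries compared alone, a prior count of 0.5 and each library left out. Same-numbered libraries deviated together for siControl and siMLX (correlations 0.191 to 0.365), not in every pair for siControl and siMondoA (0.00267 to 0.135) or siMondoA and siMLX (-0.111 to 0.531), and in opposite directions for DMSO and SBI-477 (-0.623 to -0.337). Counts of replicates differed beyond sampling noise (chi-square per degree of freedom at least 7.93). On simulated counts for siMondoA against siControl (12886 genes) the test recovered 62.6% of genes changed by 1 on the log2 scale. It recovered 98% of those changed by 2, with 11 false calls. For SBI-477 against DMSO (13892 genes) it recovered 74% and 98%, with 8 false calls. Genes were drawn independently, with 100 changed by each size and no library standing apart. The simulation therefore does not give the power or error rate of the tests on these libraries. Positions, exon lengths and shared 25-base words are from GENCODE 29 on GRCh38, and promoter windows from RefSeq on GRCh38.p14.

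The members, the gene lists and the tests were chosen with earlier results of these data known. One gene of the leukocyte marker list is not reported here, and the sums leave it out. All members could be named. Those with an adjusted p under 0.05 are given by library, and of 57 other sugar pathway genes up to 4 per comparison with the smallest adjusted p (56 matched by symbol). PDK1, PDK2, PDK3, PDP2 and the single marker genes were added after their values were seen. Figures were drawn with matplotlib 3.10.9.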

Additional observations from a re-analysis of the deposited data

Results flagged for a closer look

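In 3 of 33 members (9.09%, beside 7.67% of all genes) the effects of SBI-477 and siMondoA differed by the interaction test of edgeR, each effect taken against its own controls. LDHA had -1.02 ± 0.23 after siMondoA and -0.08 ± 0.11 after SBI-477, a difference of 0.95 ± 0.28 on the log2 scale. GNPNAT1 had 0.92 ± 0.16 and 0.10 ± 0.10, a difference of -0.81 ± 0.20. UAP1 had 0.77 ± 0.17 and -0.05 ± 0.11, a difference of -0.80 ± 0.22. In all 3 genes siMondoA and siControl did not overlap (over all genes, 24.4% were higher and 22.8% lower without overlap), while SBI-477 and DMSO did, as in every member. The 3 were picked by the interaction test on these same libraries, so this pattern is not further evidence. None of the 3 passed with replicates 1 and 3 only in the drug experiment (edgeR adjusted p = 0.0739 for LDHA, 0.0565 for GNPNAT1 and 0.0842 for UAP1). Of 12 fits that each left out 1 library of these 4 groups, 11 ended the call of LDHA, 9 that of GNPNAT1 and 10 that of UAP1.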

How the results depend on the processing

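Among results with an unadjusted p under 0.05, none reversed under any alternative that was run. Leaving out 1 library at a time gave 3 to 7 members that rose and 1 to 3 that fell after siMondoA, 1 to 2 and 0 to 0 after siMLX, 0 to 3 and 0 to 5 between siMondoA and siMLX, 0 to 0 and 0 to 0 after SBI-477, and 0 to 8 for the SBI-477 effect minus the siMondoA effect. Over these fits the share of all genes called ran from 13.2% to 29.4% after siMondoA and from 1.93% to 6.31% after siMLX. It ran from 5.08% to 22.5% between siMondoA and siMLX and from 3.05% to 12% for the difference of effects, and was 0% after SBI-477. DESeq2 called 7 members up and 4 down after siMondoA (33.3% beside 30.8% of all genes), 2 up and 0 down after siMLX (6.06% beside 13%), 4 up and 3 down between siMondoA and siMLX (21.2% beside 17.7%), and 8 for the difference of effects (24.2% beside 13%). The replicate block gave 3 up and 0 down after siMLX (9.09% beside 14%), 4 up and 3 down between siMondoA and siMLX (21.2% beside 20%) and 5 for the difference of effects (15.2% beside 7.29%). For siMondoA against siControl the block gave 7 up and 4 down (33.3% beside 35%), and 4551 called genes in place of 3532. Same-numbered libraries there were most alike in 3 of 6 cases. Without the filter the difference of effects passed in 5 members (14.7% beside 5.5% of all genes). With only the 6 libraries compared, 3 members rose after siMLX (9.09% beside 9.09%) and 0 rose or fell between siMondoA and siMLX (0% beside 5.55%). With replicates 1 and 3 only, 5 rose and 3 fell after SBI-477 (24.2% beside 18.1%). Of the alternatives added after the values were seen, leaving out replicate 2 of siMondoA and siMLX gave 2 higher and 5 lower in siMondoA than siMLX (21.2% beside 19.6%). Leaving siMLX replicate 2 out of the spread gave 8 up and 4 down after siMondoA (36.4% beside 32.9%). For single genes, 465 of 587 values kept their side of the threshold, 50 newly passed and 72 no longer passed. The causes were not tested, apart from the fewer libraries where libraries were left out. Among the members LDHB alone was below the filter on counts, with 1 count in 15 libraries.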

Other observations

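Beside the members, 44 of 56 matched genes around them (other transporters, mitochondrial pyruvate entry, phosphate shuttles and salvage) were tested after siMondoA, and 6 rose and 6 fell, 27.3% as among all genes (27.2%). SLC2A12, a glucose transporter (GLUT12), fell most: it stood at 32, 33.7 and 29.1 CPM in siControl, 7.19, 5.09 and 8.09 after siMondoA and 17, 17.8 and 17.1 after siMLX. The 3 groups did not overlap, and the log2 fold changes were -2.22 ± 0.17 after siMondoA and -0.87 ± 0.16 after siMLX (edgeR adjusted p = 8.74e-05 and 0.0113), the latter -0.89 ± 0.18 without siMLX replicate 2 (0.0196). Between siMondoA and siMLX SLC2A12 differed by -1.35 ± 0.17 (edgeR adjusted p = 0.00151), and by -1.33 ± 0.19 without that library (0.00136). In the drug libraries it stood at 17.7, 7.26 and 27.5 CPM in DMSO and 7.35, 14.2 and 4.34 in SBI-477, with replicate 2 the lowest DMSO and the highest SBI-477 library. The log2 fold change after SBI-477 was -1.02 ± 0.53 as labelled (edgeR adjusted p = 1) and -1.93 ± 0.26 with replicates 1 and 3 only (0.00238).

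Among the kinases and phosphatases of pyruvate dehydrogenase, PDK4 fell and PDP1 rose after siMondoA. The threshold was missed by PDK1 (-0.50 ± 0.19, edgeR adjusted p = 0.071), PDK2 (-0.29 ± 0.18, 0.24), PDK3 (-0.54 ± 0.22, 0.0844) and PDP2 (0.30 ± 0.11, 0.0678). PDK4, a kinase that switches it off, had 89.9, 95.5 and 67.4 CPM in siControl, 29.8, 29.6 and 26 after siMondoA and 48.3, 44.8 and 31 after siMLX (-1.56 ± 0.19 and -1.03 ± 0.18, edgeR adjusted p = 0.000608 and 0.00972), and without siMLX replicate 2 the value after siMLX was -1.09 ± 0.20 (0.0145). PDP1, a phosphatase that switches it on, had 98.6, 95.9 and 100.4 CPM in siControl, 192, 173 and 213 after siMondoA and 80.2, 98.2 and 87.6 after siMLX. It rose after siMondoA (0.97 ± 0.11, edgeR adjusted p = 0.000566) and was higher there than in siMLX (1.12 ± 0.11, edgeR adjusted p = 0.000521, and 1.20 ± 0.12 with 0.000267 without siMLX replicate 2). The SBI-477 effect on PDP1 minus that of siMondoA was -1.15 ± 0.23 (edgeR adjusted p = 0.0112), and -1.43 ± 0.16 with replicates 1 and 3 only in the drug experiment (0.00113). SLC2A13, a transporter of myo-inositol, fell after siMondoA (-0.84 ± 0.17, edgeR adjusted p = 0.00709), and did not pass after siMLX (-0.51 ± 0.17, 0.0871). GPD1L, of the glycerol 3-phosphate dehydrogenase family, fell after siMondoA (-0.44 ± 0.11, edgeR adjusted p = 0.0172) and after siMLX (-0.69 ± 0.11, edgeR adjusted p = 0.00702, and -0.61 ± 0.11 with 0.0147 without siMLX replicate 2). Of these genes 0 rose and 3 fell after siMLX (6.82%, beside 8.41% of all genes), and without siMLX replicate 2 also 0 rose and 3 fell (6.82%, beside 6.27%). After SBI-477, 0 of 47 passed as the libraries are labelled, beside 0% of all genes. With replicates 1 and 3 only, 5 rose and 7 fell, 25.5% beside 18.1% of all genes, and the falls included SLC2A12, PDK4 (-1.07 ± 0.18, edgeR adjusted p = 0.00511) and PDP1 (-0.48 ± 0.08, 0.00608).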
